A study of Mus musculus with 3 samples.

Results

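The globin genes and the genes that supply their chaperone and heme were followed in mouse embryoid bodies, floating aggregates in which embryonic stem cells differentiate. The members were the embryonic globin genes Hbb-bh1, Hbb-y and Hba-x, the alpha globin gene Hba-a1, the adult beta globin genes Hbb-b1 and Hbb-b2, the alpha globin chaperone gene Ahsp and the heme synthesis gene Alas2. They were chosen by the gene name that the array files give each probe, and all 8 were found, with 9 probes among the 39429 on the array. The wild type group was unmodified control embryoid bodies, and the Dido3deltaCT group carried a Dido3 protein truncated at its C terminus. Both groups had been in suspension culture for 10 days, with no LIF, the factor that keeps stem cells from differentiating. There were 3 samples of each genotype, labelled as biological replicates, and each of the 3 two-colour arrays took 1 mutant and 1 wild type sample. Nothing in the labels says if each replicate is a cell line of its own, so the p-values measure the spread between these samples, which may be that of repeat cultures, and other differences between the lines cannot be told apart from the genotype.

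Hemoglobin is built from a pair of alpha-like and a pair of beta-like chains, each holding 1 heme. The first red cells of the mouse embryo arise in the yolk sac and use zeta globin (Hba-x) with the embryonic beta-like chains epsilon-y (Hbb-y) and beta-h1 (Hbb-bh1), together with alpha globin. Red cells made later use alpha globin with adult beta globin, and embryoid bodies are known to form primitive red cells of the yolk sac type. Ahsp binds free alpha chains and keeps them from precipitating, and Alas2 is the erythroid form of the enzyme that starts heme synthesis.

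The array reads each gene through probes of 60 bases, and the stretches below are those of the 4 globins that could be tested. The Hbb-bh1 probe lies at chr7:110990209-110990268, minus strand, and the probes of Hbb-y at chr7:111000268-111000327 and chr7:111000448-111000507, minus strand. Those of Hba-x and Hba-a1 lie at chr11:32177668-32177727 and chr11:32183955-32184014, plus strand (all mm9, per the array files). The files annotate each to an mRNA of the gene without naming an exon. The Hba-a1 probe is annotated to Hba-a1 and Hba-a2 mRNAs alike, so these near-identical genes cannot be told apart. For the first probe of Hbb-y the 30 bases shown hold the polyadenylation signal word in capitals, so this probe reads the 3′ end of the mRNA, and the other probe of Hbb-y reads coding sequence. From Hbb-bh1 the first 30 bases are shown, and the remaining probes are whole.
Hbb-bh1: taaactccattccagtacactggcaatccc
Hbb-y, 3′ probe: cacatcatgtttAATAAAgatcatccttcc
Hbb-y, coding probe: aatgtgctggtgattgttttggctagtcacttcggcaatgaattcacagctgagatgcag
Hba-x: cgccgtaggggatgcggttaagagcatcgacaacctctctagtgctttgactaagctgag
Hba-a1: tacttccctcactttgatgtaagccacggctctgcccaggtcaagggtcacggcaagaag

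Some facts of the arrays bear on every value. The share of spots well above background ran from 46.5% to 62.5% in mutant samples and from 48.5% to 74.4% in wild type samples, and the number of arrays limits the precision. The mutant sample was labelled with Cy5 on replicate 2 and with Cy3 on replicates 1 and 3, so a dye effect does not cancel in the means. On every array the Cy5 channel had the larger share of spots well above background. It was 74.4% against 62.3% on replicate 1, 62.5% against 48.5% on replicate 2 and 63.3% against 46.5% on replicate 3. In the flags of dim probes the part of the dye thus cannot be told apart from that of the genotype. Over genes, which are not independent replicates, the log2 ratios of replicates 1 and 3 correlated at 0.879, while those of replicate 2 correlated at 0.151 and 0.180 with them. Replicate 2 alone had the opposite dye orientation, so dye and replicate cannot be told apart in this gap. The 4 probes of Dido1, the targeted gene, had mean ratios from −1.92 to 1.74, and each kept its sign on all 3 arrays. They do not check the genotype labels, since the labels give no limits of the altered part. Levels are log2 intensities of the 2 channels after scaling, which can be compared between samples for a probe but not between probes. Ratios are log2 of mutant over wild type.

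Hbb-bh1, the beta-h1 chain of the first red cells, was the member with a called change. Its wild type levels were 12.69, 12.74 and 11.99 in replicates 1, 2 and 3, and its mutant levels were 8.10, 9.54 and 8.04. Every mutant sample lay below every wild type sample, with a gap of 2.44 between the nearest of them, and all 6 samples were well above background. Before any normalization the spot intensities were 9197, 8205 and 4060 in the wild type and 253, 696 and 143 in the mutant, against local backgrounds of 29.0 to 38.0. The ratios on the 3 arrays were −4.59, −3.20 and −3.94, a mean of −3.91 ± 0.34 (SE, n = 3, adjusted p = 0.0417, limma with Benjamini-Hochberg adjustment), so Hbb-bh1 fell 15.1-fold. On single arrays the fold was 24.1, 9.20 and 15.4, lowest on replicate 2, whose mutant sample was the highest of its group. Of the 15426 genes tested, 0.136% had a ratio as low as this.

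Hbb-bh1 was 1 of the 14 genes called lower, which are 0.0908% of those tested, while 32 genes (0.207%) were called higher and no member was among them. Hbb-bh1 lost its call without replicate 1 (−3.57, adjusted p = 0.0888, limma) and under 5 other settings, in which adjusted p was 0.0502 with median centring, 0.0538 among genes above background in both channels, 0.0700 without a filter on dim probes, 0.140 in the authors' value table (−2.52) and 0.301 with all spots in the background model (−2.94). Its ratio was below 0 in all 15 alternatives.

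**Figure D1:**
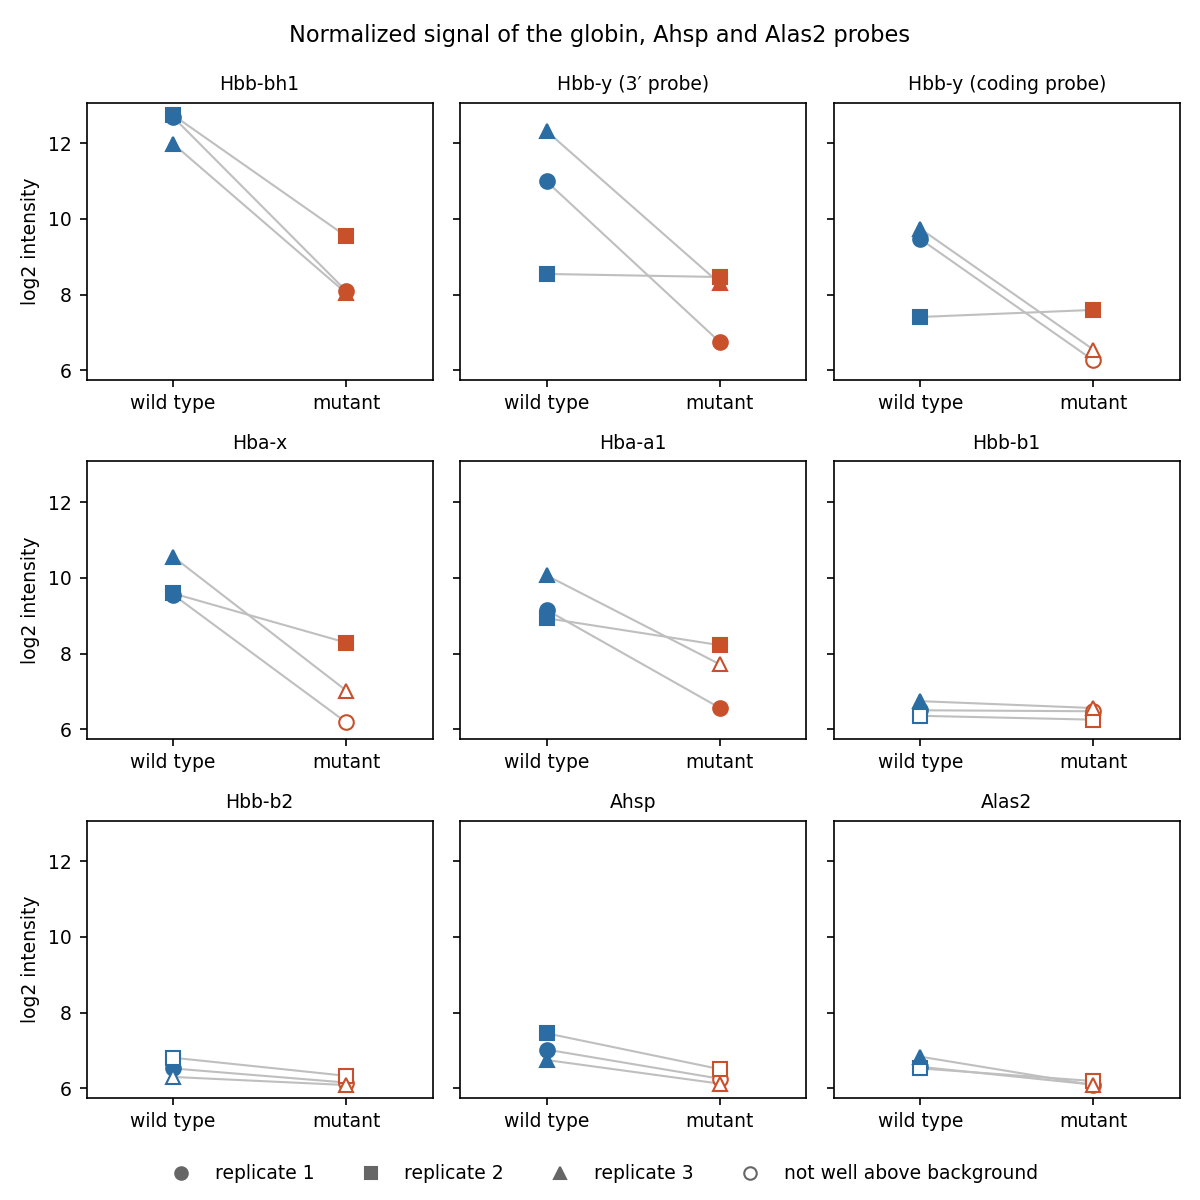
Normalized log2 intensity (vertical axis) of the 9 probes of the 8 genes in the wild type (blue) and mutant (red) samples, with lines joining the samples of 1 array, a symbol for each replicate and open symbols where a sample was not well above background. Hbb-bh1 falls from between 11.99 and 12.74 to between 8.04 and 9.54, Hbb-y is already low in wild type replicate 2, and the probes of Hbb-b1, Hbb-b2, Ahsp and Alas2 lie near background. Levels of different probes are not comparable.

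Hbb-y, the epsilon-y chain, behaved differently on replicate 2 at both of its probes. At the 3′ probe its wild type levels were 10.99, 8.55 and 12.32 and its mutant levels 6.75, 8.47 and 8.30. The groups were separated by only 0.08, because wild type replicate 2 lay close to the mutant samples. All 6 samples were well above background, so this is a measured low level. The ratios were −4.24, −0.08 and −4.02, a mean of −2.78 ± 0.88 (SE, n = 3, adjusted p = 0.160, limma), which did not pass the threshold. Unnormalized spot intensities followed the same order, with 2702, 402 and 5106 in the wild type and 87.9, 315 and 188 in the mutant.

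The coding probe of Hbb-y gave the same pattern. Wild type levels were 9.47, 7.41 and 9.74 and mutant levels 6.27, 7.60 and 6.55, so the groups overlapped on replicate 2. Its ratios were −3.20, 0.19 and −3.19, with a mean of −2.07 ± 1.95 (SD, n = 3) and an adjusted p of 0.344 in limma's fit to all 39429 probes. In the mutant 1 of the 3 samples was well above background, that of replicate 2, and in the wild type all 3 were. The 2 probes lie about 0.2 kb apart on the mRNA strand of 1 gene and are not independent of each other.

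Wild type replicate 2 minus the mean of the other two wild type samples was −3.11 at the 3′ probe and −2.20 at the coding probe. Over all tested genes the median of this difference was 0.05, and 0.220% of genes had one as low as the 3′ probe. The other embryonic beta-like gene did not share it. For Hbb-bh1 the difference was 0.41, and wild type replicate 2 was the highest of its group. It was −0.47 for Hba-x and −0.67 for Hba-a1. In the mutant, replicate 2 was instead above the mean of the others, by 1.47 for Hbb-bh1, 1.69 for Hba-x, 1.08 for Hba-a1 and 0.94 for the 3′ probe of Hbb-y. Replicate 2 also differs in dye orientation, and the part of the dye in these differences cannot be told apart from that of the sample.

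Hba-x, the zeta chain, is the embryonic alpha-like globin. Its wild type levels were 9.56, 9.59 and 10.56 and its mutant levels 6.19, 8.29 and 7.03. The groups did not overlap, with a gap of 1.27, and in the mutant only replicate 2 was well above background. The ratios were −3.37, −1.30 and −3.53, of which those of replicates 1 and 3 rest on mutant samples not above background. The mean was −2.74 ± 0.51 (SE, n = 3, adjusted p = 0.0706, limma), which did not pass the threshold.

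Hba-a1 encodes the alpha chain that embryonic and adult red cells share. In the wild type its levels were 9.15, 8.94 and 10.07, and in the mutant 6.57, 8.23 and 7.72. The groups were separated by 0.71, and the mutant samples of replicates 1 and 2 were well above background. With ratios of −2.58, −0.71 and −2.34 the mean was −1.88 ± 0.44 (SE, n = 3, adjusted p = 0.0984, limma). The probe named for Hba-a2, the near-identical second alpha gene, is annotated to the same pair of mRNAs and was well above background in all 6 samples. It gave 10.02, 10.54 and 11.00 in the wild type and 7.99, 8.98 and 9.04 in the mutant. Its ratios of −2.02, −1.56 and −1.96 were closer to each other, with a mean of −1.85 ± 0.25 (SE, n = 3, adjusted p = 0.0543, limma), also outside the threshold.

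**Figure D2:**
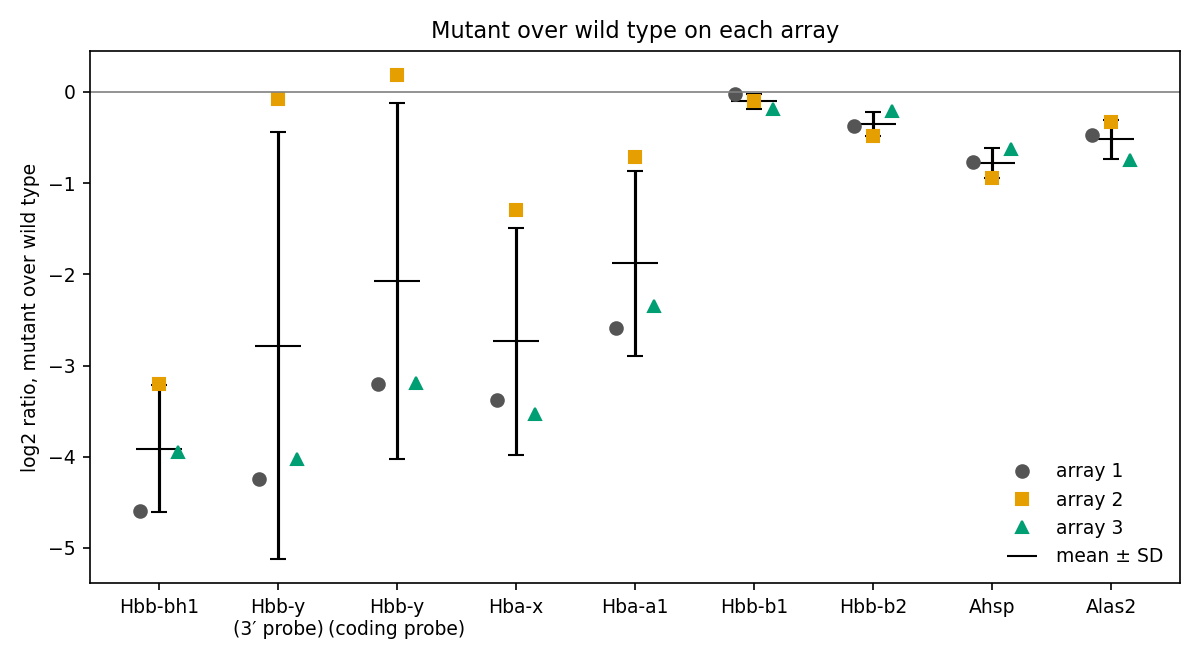
Log2 ratio of mutant over wild type (vertical axis) on each of the 3 arrays for the 9 probes, with black bars for the mean ± SD. Array 2 lies nearer to 0 than arrays 1 and 3 for Hbb-bh1, Hba-x and Hba-a1 and at about 0 for both probes of Hbb-y, while the 4 dim probes on the right stay between −0.95 and −0.03.

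The adult beta globins were dim in both genotypes. For Hbb-b1 the wild type levels were 6.51, 6.36 and 6.75 and the mutant levels 6.48, 6.26 and 6.56, and the groups overlapped. In the wild type 2 of the 3 samples were well above background and in the mutant none was, and the lower bound on the fold was under 1, so no fold is given. The accession of this probe belongs to Hbb-bt in the reference table used here, the second adult beta gene of the strain-dependent Hbb haplotypes. For Hbb-b2 the wild type levels were 6.53, 6.81 and 6.30 and the mutant levels 6.15, 6.33 and 6.09, which overlapped, with 1 wild type sample and no mutant sample well above background and again no fold. In the fit over all probes limma gave adjusted p-values of 0.805 and 0.336. The probe of Hbb-bs, a further adult beta gene, was above background in 2 wild type samples and no mutant sample. No fold is given for it, and limma's fit to all probes gave an adjusted p of 0.159. The depth of these probes over background does not allow a statement on adult beta globin in the mutant.

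Ahsp was well above background in the 3 wild type samples, at 7.02, 7.46 and 6.75, and in none of the mutant samples, at 6.26, 6.51 and 6.13. The groups did not overlap, with a gap of 0.24. Where a genotype is not above background on any array only a bound can be given, which sets the mean of the brighter group against the higher of the dim probe and the dimmest probe still above background. Ahsp was at least 1.36-fold lower in the mutant (ratios of −0.77, −0.95 and −0.62, mean −0.78 ± 0.24 SE, n = 3, adjusted p = 0.150, limma). Alas2 was at 6.57, 6.53 and 6.84 in the wild type, above background in replicates 1 and 3, and at 6.10, 6.19 and 6.09 in the mutant, above background in no sample. It was at least 1.08-fold lower, with ratios of −0.47, −0.33 and −0.75 and an adjusted p of 0.237 over all probes (limma). Unnormalized intensities of Alas2 were 75.7 to 85.7 in the wild type and 43.4 to 60.2 in the mutant, against local backgrounds of 30.0 to 41.0.

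In all, 5 of the 8 members passed the filter on dim probes, Hbb-bh1, Hbb-y, Hba-x, Hba-a1 and Ahsp. Hbb-b1, Hbb-b2 and Alas2 did not. Of the 5, 1 fell, none rose and 4 did not pass the test. All 5 had ratios below 0 on the 3 arrays, as did 22.7% of all genes tested, and the wild type samples of all 5 lay above the mutant samples without overlap, as did those of 10.3% of the genes tested. For Hbb-y both statements depend on the choice of probe. They hold at its 3′ probe, with a gap of 0.08. At its coding probe the ratio of replicate 2 was 0.19 and the groups overlapped. Hba-x, Hba-a1 and Ahsp passed the filter through the wild type group alone, so they had to be low in the mutant to some degree, and these counts are a description. The whole tissue was measured, so fewer red cells and less globin RNA per red cell cannot be told apart.

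Without replicate 2 all 5 were called lower, with adjusted p from 0.000741 for Hbb-y to 0.0275 for Ahsp (limma), and the ratios were −4.13 for Hbb-y, −3.45 for Hba-x and −2.46 for Hba-a1. A dye term in the model also gave 5 calls, with ratios of −3.73 for Hbb-bh1, −2.11 for Hbb-y, −2.38 for Hba-x, −1.59 for Hba-a1 and −0.82 for Ahsp. In both fits the residual error comes from replicates 1 and 3, which share a dye orientation, and 3345 and 2300 of all genes were called lower. Over all alternatives run the ratio of Hba-x lay between −4.52 with the scanner software's processed signals and −1.34 in the authors' value table, that of Hba-a1 between −2.87 and −0.96 and that of Ahsp between −2.54 and −0.52 under the same settings.

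Among the tested globin members Hbb-bh1 and the 3′ probe of Hbb-y were above background in all 6 samples, so their ratios could be set against each other on every array. Hbb-bh1 minus Hbb-y was −0.35, −3.12 and 0.08 on the 3 arrays (mean difference of ratios −1.13 ± 1.74 SD, n = 3). The exact sign-flip test gave a two-sided p of 0.5, where the smallest that 3 arrays allow is 0.25, so no difference can pass the threshold. Where the mutant sample was readable, Hbb-bh1 minus Hba-a1 was −2.01 and −2.49 on replicates 1 and 2, and Hbb-bh1 minus Hba-x was −1.90 on replicate 2. No order of the members is drawn from these values.

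Along the chromosomes the ratios were laid out in the order of the genes. In the beta cluster the Hbb-bh1 probe lies 10.2 kb downstream of Hbb-y, in the direction of transcription, followed by Hbb-bh2 at 11.5 kb, Hbb-bs at 24.1 kb and Hbb-b1 at 39.3 kb (mm9). Hbb-bh2, a beta-like gene next to Hbb-bh1 that the files call Gm5736, was read at 2 probes. It was not above background at 1 of them and above it in 1 mutant sample at the other. A further probe with the name Gm5736 has no position and was not read here. In the alpha cluster Hba-a1 lies 6.3 kb and Hba-a2 19.6 kb downstream of Hba-x. The ratios there were −2.74 at Hba-x and −1.88 and −1.85 at the probes of the alpha genes, which these probes do not tell apart. The adult beta probes and some mutant samples of Hba-x and Hba-a1 were not above background, so no trend is stated for either cluster.

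**Figure D3:**
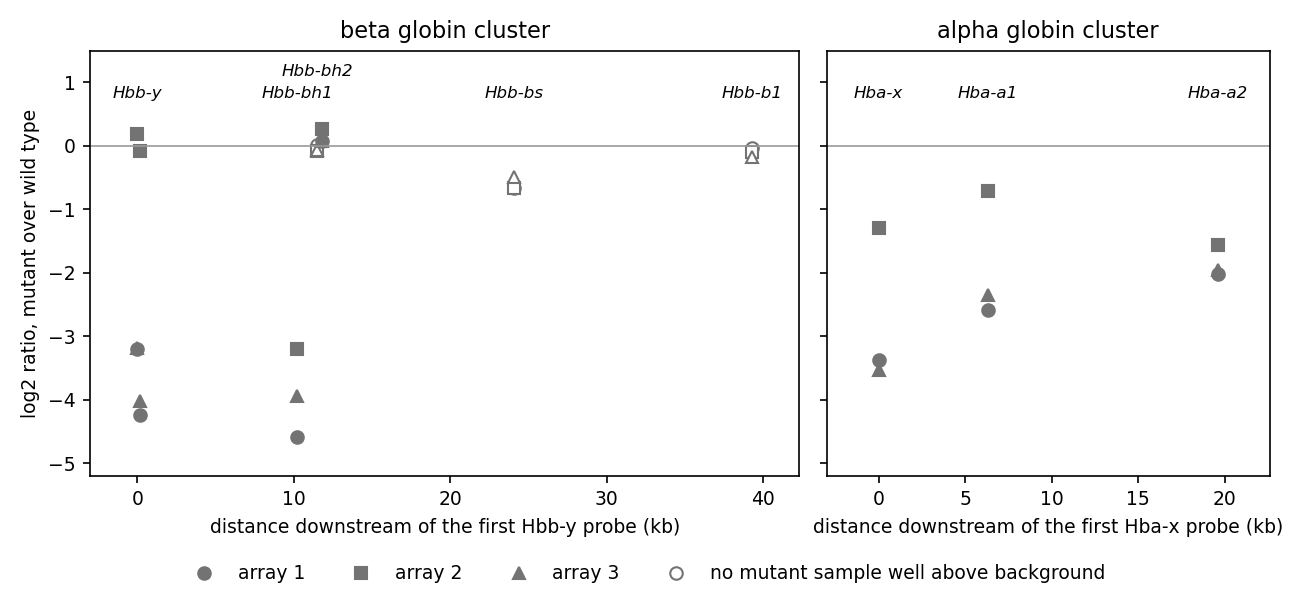
Log2 ratio of mutant over wild type (vertical axis) on each array against the distance of the probe from the first Hbb-y or Hba-x probe in kb, with a symbol for each array and open symbols for probes with no mutant sample well above background. The low ratios lie at Hbb-y and Hbb-bh1 in the beta cluster, with array 2 at about 0 for Hbb-y, and at all 3 probes of the alpha cluster. The probes of Hba-a1 and Hba-a2 do not tell these genes apart.

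Promoter sequences were given for 4 of the 8 members, Hbb-y, Hba-x, Hba-a1 and Alas2. The 200 bases upstream of the start sites of the first 3 are shown since these genes have low ratios on replicates 1 and 3 and differ on replicate 2 (RefSeq, GRCm38.p6). They lie at chr7:103853208-103853407, minus strand, chr11:32276400-32276599, plus strand, and chr11:32283472-32283671, plus strand. Capitals mark words searched on both strands: GATA words (AGATAA, or TGATAA, or either with a final G), CCNCNCCC, CCAAT and TATAA. GATA words are bound by Gata1, the lead transcription factor of red cells.
Hbb-y: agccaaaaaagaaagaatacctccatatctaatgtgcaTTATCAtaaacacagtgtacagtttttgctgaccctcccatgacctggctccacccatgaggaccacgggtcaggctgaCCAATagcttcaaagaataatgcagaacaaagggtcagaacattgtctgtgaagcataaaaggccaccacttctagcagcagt
Hba-x: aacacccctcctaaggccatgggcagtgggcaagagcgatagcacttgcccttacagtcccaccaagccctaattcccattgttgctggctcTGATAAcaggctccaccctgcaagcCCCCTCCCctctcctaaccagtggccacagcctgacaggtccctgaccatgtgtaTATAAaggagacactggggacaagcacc
Hba-a1: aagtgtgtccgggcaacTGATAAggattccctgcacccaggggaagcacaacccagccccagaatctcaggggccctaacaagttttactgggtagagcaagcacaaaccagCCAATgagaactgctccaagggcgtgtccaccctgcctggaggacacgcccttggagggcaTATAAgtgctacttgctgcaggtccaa

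A GATA word stood in the 250 bases upstream of all 4 members searched, at −162 for Hbb-y, −183 for Hba-a1, −86 for Alas2 and −234 and −108 for Hba-x. Of 32851 promoters of the same length 26.5% held one. CCAAT stood in those of Hbb-y and Hba-a1 and in 33.8% of all, CCNCNCCC in those of Hba-x and Alas2 and in 45.9% of all, and TATAA in those of Hba-x, Hba-a1 and Alas2 and in 22.8% of all. A match is a description of the letters and not a site of binding.

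The enzymes that carry heme synthesis past its first step showed no called change. Of 7 tested genes 0 rose and 0 fell, with a median ratio of −0.24 against 0.03 over all genes tested, and the list median was 0.02 without a filter on dim probes. Of all genes tested 0.0908% were called lower and 0.207% higher. A count of 0, here and in the lists below, thus says little about the genes of a list. Ppox, which oxidises protoporphyrinogen, had −1.13, −0.28 and −0.96 (mean −0.79, adjusted p = 0.193, limma), and Fech, which inserts the iron, had 0.80, 0.21 and 0.88 (mean 0.63, adjusted p = 0.245). The tested probe of Uros had −0.11, −0.91 and −0.36 and was above background in no mutant sample, though another probe of the gene was above it in at least 1. Of the 8 enzymes on the list 6 were above background in all mutant samples and 7 in all wild type samples.

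Genes of heme and iron transport and storage also held no called change, 0 of 23 either way, with a median of 0.22, or −0.10 with median centring. The smallest adjusted p belonged to Tmem14c, a mitochondrial carrier of heme precursors, with ratios of −1.49, −1.68 and −1.07 and a mean of −1.41 ± 0.26 (SE, n = 3, adjusted p = 0.0697, limma). Slc40a1, the iron exporter ferroportin, had a mean of 0.83 (adjusted p = 0.146), the iron-sulfur cluster enzyme gene Nfs1 0.97 (adjusted p = 0.179) and the iron reductase gene Steap3 0.71 (adjusted p = 0.233). None of the 4 tested genes of heme breakdown passed. The heme oxygenase gene Hmox1 had a mean of 0.27 and Hmox2 −0.44, and the biliverdin reductase genes Blvrb and Blvra had 0.95 and −0.06.

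Of 15 genes on the list of red cell transcription factors 10 were tested and 0 called either way, and Nfe2, Lyl1 and Sox6 were above background in no mutant sample. On all 3 arrays 2 of the 10 were below 0 and 3 above it, with a median of −0.10 that was above 0 with a dye term (0.03), without replicate 1 (0.09) and without replicate 3 (0.04). Gata1 had levels above background in all samples and ratios of 0.90, 0.56 and 0.69, with a mean of 0.72 ± 0.24 (SE, n = 3, adjusted p = 0.172, limma). Myb, a factor of blood progenitors, had 1.77, 1.50 and 1.25 (mean 1.51, adjusted p = 0.0618, limma), and Tal1 had 1.79, −0.17 and 0.32. Lmo2, which joins Tal1 and Gata1 in a complex, had −1.01, −0.36 and −1.63 (mean −1.0, adjusted p = 0.167).

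Genes of the red cell membrane and cytosol gave 0 calls among 11 tested, with a median of 0.41, or −0.04 without a filter on dim probes. Of the 26 on the list, 7 were above background in no sample of either genotype. They were Sptb, Ank1, Epb42, Rhag, Cldn13, Car1 and Trim58, which are defining genes of mature red cells. Car2, the carbonic anhydrase of red cells and other tissues, had ratios of 1.33, 1.23 and 1.96 (mean 1.51, adjusted p = 0.0685, limma), and the Rh blood group gene Rhd 2.59, 0.23 and 3.35 (adjusted p = 0.152). Prdx2, an abundant antioxidant enzyme of red cells, had −0.66, −0.69 and −1.07 (adjusted p = 0.149) and Gypc, the glycophorin C gene, −1.33, −0.12 and −1.33 (adjusted p = 0.203).

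**Figure D4:**
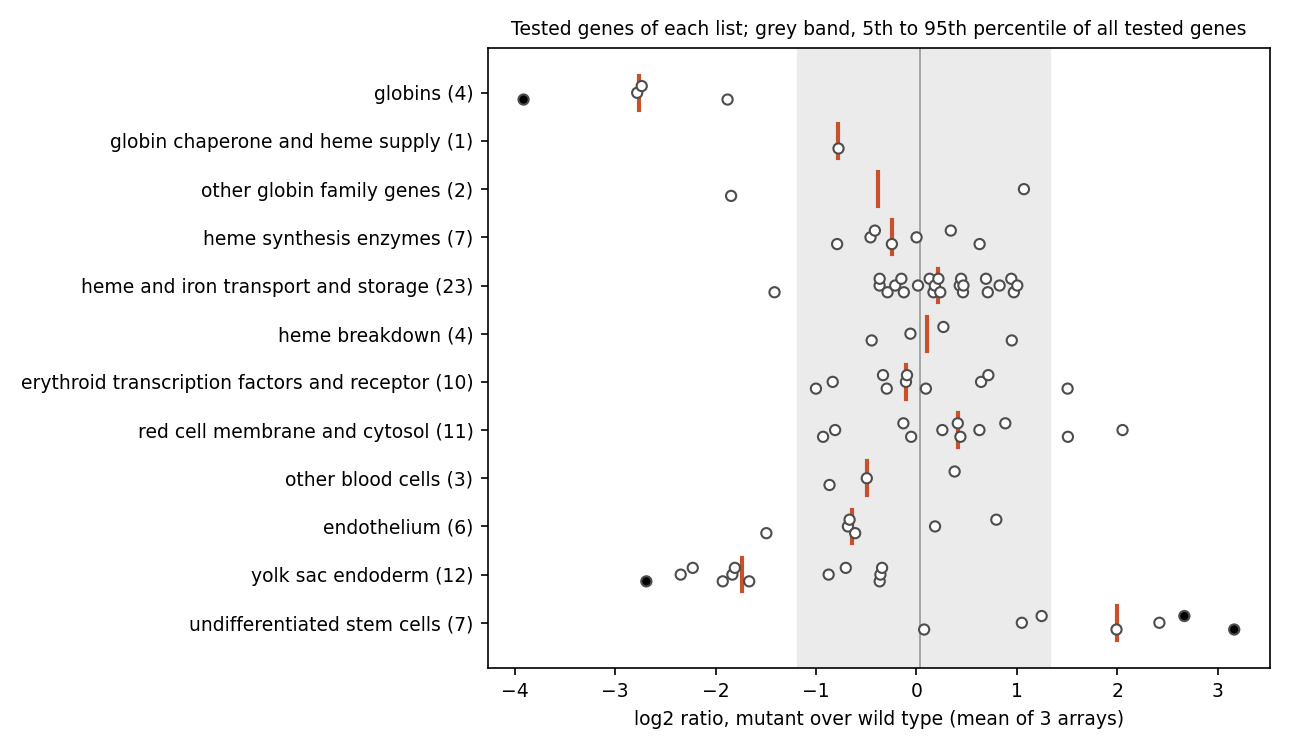
Mean log2 ratio of mutant over wild type (horizontal axis) of each tested gene, by list, with the number tested in brackets, filled points for genes past the threshold, red bars for list medians and a grey band from the 5th to the 95th percentile of all tested genes (−1.18 to 1.33). The 4 tested globins lie to the left of the band and yolk sac endoderm has a median of −1.74. The heme and red cell lists apart from the members have medians from −0.24 to 0.41. Of their genes Tmem14c lies to the left of the band and Myb, Car2 and Rhd to the right.

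Markers of red cells and of other cell types were read beside these results. Of the 13 red cell markers 4 were tested and 0 called, and the mean log2 level of the list ran from 7.52 to 7.71 in the mutant samples and from 7.49 to 7.51 in the wild type. Of the 13, 4 were above background in no sample, and they are among the membrane genes named above. Hemgn, Gata1 and Epor were above background in every sample of both genotypes, and Klf1 in all 3 mutant and 2 wild type samples. Of 12 markers of other blood cells 3 were tested and 0 called, and Ptprc, Gp9, Gp1bb, Mpo and Spi1 were above background in no sample. These lists do not tell which cells held the globin RNA.

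The yolk sac, where the first red cells form, is lined by endoderm and by vessels. Of 12 yolk sac endoderm markers 1 fell, Rbp4 (−2.69 ± 0.25 SE, n = 3, adjusted p = 0.0432, limma), against 0.0908% of all genes tested. In the same list 0 rose and 11 did not pass, with a median of −1.74 against 0.03 over all genes. On all arrays 10 of the 12 were below 0, as were 22.7% of all genes tested. Mean log2 levels of that list ran from 10.9 to 13.3 in the wild type and from 9.30 to 12.2 in the mutant samples, which overlapped. Of 8 endothelial markers 6 were tested and 0 called, with a median of −0.64. Among them Cdh5, the VE-cadherin gene, had −1.71, −1.59 and −1.18 (adjusted p = 0.0630, limma), the VEGF receptor gene Kdr had a mean of −0.61 and Eng, the endoglin gene, 0.80, while Tek, above background in no mutant sample, was at least 1.60-fold lower. Of the markers of undifferentiated stem cells 2 of 7 were called higher, Zfp42 and Dppa5a, against 0.207% of all genes tested. The list median was 1.99, and mean levels were 12.5 to 13.4 in the mutant and 11.0 to 11.5 in the wild type. On all arrays 5 of the 7 were above 0. The others were Nanog, with ratios of 0.26, −0.30 and 0.27, and Tdgf1, with 1.96, −0.21 and 1.99. The part of these cell types in the globin levels was not tested.

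The genes most like each member were found as those with the smallest Euclidean distance between their 3 array ratios and the member's, over 15426 tested genes and 3 arrays. For Hbb-bh1 they were S100g, a calcium-binding protein gene with ratios of −4.73, −2.72 and −3.96, Myl3, a heart and slow muscle myosin light chain gene, and Lama1, a laminin chain gene of basement membranes. For Hbb-y they were Fam181b, the laminin gene Lamc1 and Pvrl3, all with replicate 2 nearer to 0, between −0.76 and −0.19. Those of Hba-x were Crb2, Vopp1 and the cartilage collagen gene Col2a1, at distances of 0.19 to 0.37. Hba-a1 had Tcf23, AU040320 and Letmd1, and Ahsp had Tor1aip2, Map7d1 and a probe without a gene name. No globin was among the 3 nearest genes of another globin. The ratios of Hba-x and Hba-a1 rest in part, and those of Ahsp wholly, on mutant samples not above background. The part of this limit in the distances was not tested.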

How the data were processed

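Total RNA of 3 mutant and 3 wild type samples was amplified, labelled and hybridised in pairs to 3 arrays of 1 slide, per the labels' protocols. The deposited scanner files hold mean spot and local background intensity values of both dyes, not normalized, beside processed intensity values and other columns of flags (well above background, saturated, outlier). Per the file headers the software was Agilent Feature Extraction 10.7.3.1. A value table deposited by the authors holds log2 ratios. Compared with the scanner values its direction is mutant over wild type, its columns have medians of −0.04, 0.01 and −0.01, and its slope on the scanner means is 0.706. The submitters' processing notes name limma, while its settings, and any centring, are not given in the sources used here. Its columns for replicates 1 and 3 each correlated better with the scanner file of the other (0.916 against 0.771, and 0.983 against 0.842). Both share a dye orientation, so means are unaffected.

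R 4.3.3, limma 3.58.1 and matplotlib 3.10.9 were used. Signals were corrected with normexp (offset 50) and loess within arrays, with weight 0 for 1377 control spots. Outlier spots and 7 spots of extreme local background (above 10 times the median, replicate 3) were left out, and the latter took the median background in the model. Spots of a probe were averaged, probes kept where either genotype was well above background on each of the 3 arrays (19141), and the brightest used per gene (15426 genes). A two-sided moderated test of the mean ratio against 0 (lmFit, eBayes) was adjusted by Benjamini-Hochberg at 0.05. Members too dim for this were read from a fit over all 39429 probes. Levels are from loess with Aquantile scaling. Mutant and wild type of 1 array form a pair because they were hybridised together. Symbols came from RefSeq (GRCm38.p6) through the accessions of 26761 probes. The fit was tested on simulated data. Named genes are all members, the called genes or up to 4 of smallest p in each list, the 3 nearest genes of each tested member, and, named after their values were seen, Dido1, the neighbouring globin genes and list genes above background in no sample or no mutant sample, with some items not reported here. The members and lists were chosen with earlier results of these data known. Alternatives are given in the closing section.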

Additional observations from a re-analysis of the deposited data

How the results depend on the processing

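No member changed sign under the alternatives run for it, 15 for Hbb-bh1, Hbb-y, Hbb-b1, Hbb-b2 and Alas2 and 14 for Hba-x, Hba-a1 and Ahsp, which have no value with both channels required above background. None called a member higher. The count of members called lower, 1 in the analysis reported, was 0 with all spots kept in the background model, with median centring, with no filter on dim probes, with both channels required above background and in the authors' value table. It was 2 with the scanner software's processed signals, which add Ahsp (−2.54, adjusted p = 0.0494, limma), and 5 with a dye term. With 1 replicate left out it ran from 0 (without replicate 1) to 5 (without replicate 2). The counts of all genes called higher and lower, 32 and 14, were 0 and 0 with all spots in the background model (limma, with 1683 at an unadjusted p under 0.05), 86 and 57 with offset 16, 97 and 64 with no background correction, 260 and 166 with processed signals, 4 and 3 with median centring, 63 and 46 with scaling between arrays, 1 and 1 with no filter, 3 and 1 with both channels above background, 67 and 36 with the mean over probes, 2448 and 2300 with a dye term and 0 and 0 in the authors' table (limma, 3057 at an unadjusted p under 0.05). With the channels as unpaired samples (no replicate block) they were 178 and 96, and Hbb-bh1 had an adjusted p of 0.0111. With 1 replicate left out they ran from 3 to 3962 and from 2 to 3345. Genes lower in the mutant were 30.4% of the called, 42.9% with median centring, 42.2% with scaling and 48.4% with a dye term. Median centring moved the median of all genes from 0.03 to −0.22. The cause of these changes was not tested. Signal over background limits Hbb-b1, Hbb-b2, Ahsp and Alas2 to bounds or to no fold.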
